A study of Homo sapiens and Mus musculus with 20 samples.

Results

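Potassium channel genes, taken as every protein-coding gene whose symbol begins with KCN in the GENCODE v44 annotation of GRCh38 (hg38), were followed through the chromatin accessibility peaks of the SW480 line. The symbol rule gave 96 genes of the 20033 protein-coding genes of the annotation, and it used no measured value. By symbol, 40 genes were grouped as voltage-gated pore subunits (KCNA, KCNB, KCNC, KCND, KCNF, KCNG, KCNH, KCNQ, KCNS and KCNV), 16 as inward rectifiers (KCNJ) and 15 as 2-pore channels (KCNK). Another 8 were grouped as calcium- or sodium-activated channels (KCNMA1, KCNN, KCNT and KCNU1) and 17 as accessory subunits or regulators (KCNAB, KCNE, KCNIP, KCNMB and KCNRG). The group names follow the symbols and may not give the gating of every member, such as KCNU1. Potassium channels let K+ ions flow down their gradient and so set the resting voltage of a cell and end its electrical spikes. Many of these genes are known from neurons, heart and muscle. A smaller set works in colon epithelium, where K+ leaving through KCNQ1 with KCNE3, KCNN4 and KCNK5 keeps the driving force for chloride secretion, and where KCNMA1 lets K+ into the lumen.

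SW480 is an established human colorectal adenocarcinoma line. Accessibility was measured with the Omni-ATAC form of ATAC-seq, in which a transposase cuts and tags open DNA, on 50000 viable cells per library. In the first experiment, 3 libraries came from cells given 10 mM sodium propionate (NaPr) for 12 to 16 h and 3 from untreated cells. In the second, 3 libraries came from cells given 1 mM sodium butyrate (NaBu) for the same span and 3 from their own untreated cells. Both compounds are salts of short-chain fatty acids made by gut bacteria from fibre, and the comparisons ask which chromatin opens or closes after each. The 12 lists came from 1 cell line, the 3 libraries of a group are labelled as experimental replicates, and the p-values measure the spread between those libraries. Doses differed 10-fold and each experiment had its own controls, so compound, dose and any other difference between the experiments cannot be told apart. The 8 lists of the mouse line CT26 in the series were not used here.

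Each list gave peak intervals with an enrichment over background and its −log10 p, and no reads, so sequencing depth is unknown. The lists held 108442 to 144398 intervals. All 12 stop at peak number 300000, so the weakest peak kept in a library ranged from a −log10 p of 3.37 to 9.38, and a missing peak means that none that strong was listed. Of the colon epithelium markers, 9 of 12, among them EPCAM, CDH1, VIL1 and CDX2, had a peak within 1 kb of the start in all 12 libraries (CDX1 in none), against 0 of 4 leukocyte, 0 of 2 endothelial and 2 of 6 fibroblast and muscle markers (COL1A1 and COL1A2, with 3 more in some libraries). Among 11 markers listed for nervous tissue, GFAP included, 6 had such a peak in all libraries, SYP and TUBB3 among them. Over all protein-coding genes the share was 66.5%. To compare libraries, a region was ranked within each library by its highest −log10 p, from 0 (no peak there) to 100 (the strongest). All changes below are differences of that rank, treated minus untreated, in points. An interval, or a run of overlapping intervals, of the libraries of an experiment made up a region. Regions found in 2 libraries or more were tested with limma, adjusted by the Benjamini-Hochberg method over all tested regions of the genome. A region with peaks in only 1 group passed this filter through that group, so its adjusted p adds no separate support.

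The starts of potassium channel genes ranged from a listed peak in every library to none in any library. Open means here only that a peak was listed. A peak lay within 1 kb of the canonical start in all 12 libraries for 42 of the 96 genes (43.8%), in some libraries for 26 and in none for 28 (29.2%). Over all protein-coding genes the shares were 66.5% in all and 19.5% in none, and the difference between these shares was not tested. Of the pore-forming families, 20 of 40 voltage-gated genes (50%), 9 of 16 inward rectifiers (56.2%), 8 of 15 2-pore genes (53.3%) and 4 of 8 calcium- or sodium-activated genes were open in all libraries. Of the 17 accessory genes only KCNMB4, a beta subunit of the BK channel, was open in all of them, and 10 were open in none, among them KCNIP1, KCNIP2, KCNIP3 and KCNIP4, which encode the calcium-binding partners of the Kv4 channels.

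**Figure D1:**
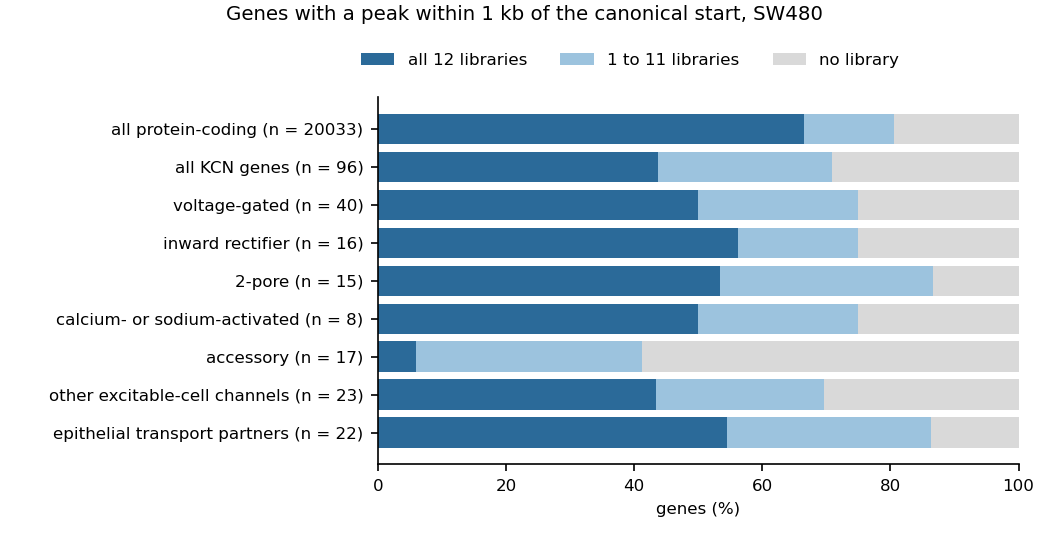
Share of genes (%) with a peak within 1 kb of the canonical start in all 12 SW480 libraries (dark), in 1 to 11 (light) or in none (grey), for KCN genes, their families, 2 other gene lists and all protein-coding genes. The accessory subunits stand lowest, with 5.88% in all libraries, and the pore-forming families lie between 50% and 56.2%.

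Strong starts were found in more than 1 family. KCNK13, which encodes the 2-pore channel THIK-1 known from microglia, ranked at 98.9 ± 0.355 (mean ± SD, n = 3) in the untreated libraries of the NaPr experiment. KCNJ2, the inward rectifier Kir2.1, ranked at 97.2 ± 0.240 there. The same genes ranked at 92.8 ± 2.02 and 95.9 ± 1.11 in the untreated libraries of the NaBu experiment, in the opposite order. Other starts ranked differently in the 2 untreated groups, a gap that was not tested. KCNQ1 ranked at 85.2 ± 1.81 in the first and at 27.1 ± 7.29 in the second experiment, KCNE3 at 81.1 ± 2.54 and 17.9 ± 16.1, and KCNN2, a small-conductance calcium-activated channel, at 37.9 ± 12.4 and 85.7 ± 1.362. Each compound is therefore compared only with its own controls below. The other end of the order was a block at 0: KCNA3, KCNA4, KCNA10, KCNC2, KCNG2, KCNH5, KCNH7, KCNQ5, KCNS1 and KCNV2 of the voltage-gated family had no start peak in any library, and neither did KCNJ1, KCNJ13, KCNJ15 and KCNJ16, which are known from kidney and other transporting epithelia.

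RefSeq promoter sequences (GRCh38) matched 72 of the 96 genes, too few for a check of promoter composition, which is therefore void and not given.

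The mean number of potassium channel genes with a peak within 1 kb of any annotated start was 2.33 lower after NaPr and 0.667 lower after NaBu, and 3 libraries against 3 cannot take such a difference past the 0.05 threshold. In the NaPr experiment 71, 68 and 68 genes had such a peak in the untreated libraries and 68, 65 and 67 in the treated ones. Over all protein-coding genes the share was 79.3%, 79.3% and 78.6% untreated and 79.0%, 78.4% and 78.0% with NaPr. In the NaBu experiment that share was 76.8%, 76.8% and 76.6% untreated and 77.3%, 77.0% and 76.9% treated. The mean KCN counts after NaPr were compared first: 69.0 ± 1.73 untreated and 66.7 ± 1.53 treated (SD, n = 3). A two-sided exact permutation test, whose smallest possible p is 0.1, gave p = 0.3. In the NaBu experiment the KCN counts were 65, 67 and 62 untreated and 62, 66 and 64 treated. Their means were 64.7 ± 2.52 and 64.0 ± 2.00 (n = 3), with p = 0.8 by the same exact test. Leaving out 1 library turned the sign of the NaBu difference, to 0.5 without the second untreated and to 0.333 without the first treated library. Among the top 50000 intervals of each list, which gives the lists the same length, the differences were −4.67 genes after NaPr and −4.33 after NaBu. Each had the smallest possible exact permutation p of 0.1 (n = 3 each). The share over all protein-coding genes was not counted in these shorter lists, so these differences cannot be set against it.

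A peak on the start base itself showed a wider gap. For the canonical start it was present for 45, 43 and 40 genes in untreated and 34, 32 and 33 genes in NaBu-treated libraries, so the groups did not overlap. Over all protein-coding genes the same share was 65.8%, 65.1% and 63.5% untreated and 63.7%, 60.8% and 61.3% treated, which overlap by 1 library. Counted over any annotated start, the KCN difference was 8 genes fewer after NaBu and 1.67 fewer after NaPr (exact permutation p = 0.1, the smallest possible, and 0.3, n = 3 each). KCNJ9 and KCNK6 were among the genes with the peak over the canonical start base in all 3 untreated and in no NaBu-treated library. For KCNJ9, which encodes GIRK3, the strongest peaks of the start moved by −1.62 and −0.316 points with adjusted p = 0.198 and 0.837 (limma).

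NaPr moved a small share of the potassium channel regions. Of 1222 merged regions within the genes and 5 kb on both sides, 701 passed the filter, in 85 of the 96 genes. In the test as planned 20 regions were higher (2.85%) and 17 lower (2.43%), beside 3.07% and 2.14% of all 129351 regions tested (5.21% in either direction), so the shares lay near the background. Ranking among all tested regions, an alternative chosen after seeing the data, gave 22 higher and 31 lower, beside 4.45% and 3.9% of all regions. The verbs rose and fell below are kept for the regions called with both rankings, a limit also set after seeing the data: 15 higher and 17 lower of the KCN regions, beside 2.88% and 2.11% of all regions. The 2 groups did not overlap at 180 KCN regions, beside 26.2% of all regions. These calls rest on all 6 libraries. Without 1 library the planned test called between 0 and 15 KCN regions, 0 without the third untreated, the second treated or the third treated library, where 130 to 132 regions had an unadjusted p under 0.05. By fold enrichment limma called 0, with 111 at an unadjusted p under 0.05.

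At starts, which are regions within 1 kb of any annotated start, 3 of 140 rose and 8 fell after NaPr (2.14% and 5.71%), beside 1.55% and 4.47% of all protein-coding start regions (1.66% and 4.54% in the planned test). In introns 10 of 422 rose and 5 fell, beside 3.08% and 1.51% of all introns. No exon region rose and 2 of 51 fell (2.68% and 2.1% over all genes), while 2 of the 88 flank regions rose and 2 fell (3.56% and 1.58%). Scaling recovered pileups in place of ranks moved this balance. With pileups over their background 34 KCN regions were higher and 6 lower, and with pileups over their median 31 were higher and 67 lower, of 356 regions present in all 6 libraries. The first of these scalings also shifted the median of all regions by 0.20 on the log2 scale and the second by −0.0541. GC content moved with direction: KCN regions that rose had a median GC of 55% and those that fell 63.5%, and over all regions 51.0% and 62.5%. The background pileup of the libraries ranged from 0.936 to 2.35, and its part and that of GC were not tested.

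The starts that fell included those of inward rectifiers and 2-pore channels, given first, and the families were not tested against each other. KCNJ9 ranked at 64.3, 59.4 and 59.3 in untreated and 13.8, 14.9 and 31.9 in NaPr-treated libraries at chr1:160080869-160081232, a fall of 40.8 points (SE 10.2, limma adjusted p = 0.0447). At chr19:48462152-48462924, an alternative start of KCNJ14 (Kir2.4), ranks of 50.9, 57.7 and 44.1 gave way to no peak in any treated library. KCNJ11, which encodes the pore Kir6.2 of the ATP-sensitive channel, fell at its canonical start (chr11:17388680-17389760) from 90.6, 92.0 and 87.2 to 80.1, 73.1 and 74.9, by 13.9 points (SE 2.15, adjusted p = 0.00819). All untreated values of these regions lay above all treated ones. For KCNJ9 and KCNJ14, named among the largest changes, that was a condition, and for KCNJ11, named as a passing start, it was not. Beside the KCNJ11 start a peak of 92 bases appeared at chr11:17389869-17389960, absent from untreated libraries and at 63.4, 48.4 and 39.3 in treated ones. In the NaBu experiment both places lay in 1 region, which differed by −0.409 points (adjusted p = 0.906). KCNJ12, an inward rectifier, fell by 12.1 points at chr17:21375834-21377175, and since its sequence is nearly identical to KCNJ18, reads could be shared and the value is uncertain.

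Of the 2-pore channels, KCNK15 (TASK-5) fell at its start from 78.9, 73.8 and 71.6 to 47.5, 54.0 and 58.1, by 21.6 points. KCNK3, which encodes the acid-sensitive channel TASK-1, fell from 83.4, 81.1 and 82.8 to 69.7, 65.6 and 69.0, by 14.4 points (SE 2.47, adjusted p = 0.0123), in a window with 86.0% GC. The neuronal delayed rectifier KCNB2 fell by 9.49 points. An alternative start of KCNIP1 fell from 78.0, 76.0 and 71.3 to 55.4, 48.7 and 62.0, by 19.7 points (adjusted p = 0.0368). The groups of these 4 regions did not overlap. The KCNIP1 window is shown because it was the only KCN region called after NaPr that matched the RE1 element, here on the minus strand. The search allowed 1 mismatch, and this match is not exact. RE1 is the site of REST, a repressor of neuronal genes, and the capitals mark the match.
KCNIP1 chr5:170681207-170681406: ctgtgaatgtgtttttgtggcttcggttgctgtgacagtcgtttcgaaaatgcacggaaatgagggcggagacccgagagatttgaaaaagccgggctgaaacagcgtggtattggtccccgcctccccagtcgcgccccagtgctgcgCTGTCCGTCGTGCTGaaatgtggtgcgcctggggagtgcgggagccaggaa
Such a match was held by 0.5504% of all regions tested and by 6 of the 701 KCN regions. The window is printed on the plus strand of hg38, as are the others, and it touches an exon of the antisense gene KCNIP1-AS1.

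A rise at a canonical start was seen for KCNA7 (Kv1.7), at chr19:49073486-49074229, from 56.7, 57.5 and 57.9 to 77.6, 71.1 and 71.3, by 15.9 points (SE 4.03, adjusted p = 0.0465). A peak of 76 bases beside the KCNQ1 start, also within 1 kb of a start of TRPM5, appeared at 39.98, 44.975 and 36.4 in treated libraries only. Every NaPr start call above was lost when 1 library was left out, in 4 to 6 of the 6 such fits, with adjusted p up to 0.142.

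Whole peaks were gained and lost after NaPr. Gained peaks, listed for the 3 treated libraries and for none of the controls, made up 17 KCN regions, and lost peaks, the reverse, 12. These are 2.43% and 1.71% of the KCN regions, beside 3.04% and 1.6% of all regions. The balance turned to 5 gained and 10 lost among the top 50000 intervals of each list, to 19 and 26 without the second and to 25 and 28 without the third untreated library. Introns held 13 of the gains and 5 of the losses (3.56% and 1.72% over all introns), starts 3 and 1 (1.31% and 1.73%) and flanks 0 and 6 (4.0% and 1.51%). The largest gain was in KCNH2, which encodes hERG (Kv11.1), the pore of a repolarizing heart current that is also known from tumour lines. Within an intron near its start, at chr7:150976449-150977057, no untreated library had a peak and the treated ones ranked at 69.6, 68.4 and 57.0, a rise of 65.0 points (SE 11.1, adjusted p = 0.0118). In the same gene an intron region at chr7:150945705-150946453 went from 61.0, 52.9 and 49.4 to no peak, a fall of 54.4 points (SE 11.1, adjusted p = 0.0234). That the groups stand apart in both regions follows from how gained and lost peaks are defined. Both passed the filter only through the group that had the peak, so their adjusted p-values add no separate support. The gained KCNH2 window is shown around its summit, with the 10 summit bases in capitals.
KCNH2 chr7:150976830-150977029: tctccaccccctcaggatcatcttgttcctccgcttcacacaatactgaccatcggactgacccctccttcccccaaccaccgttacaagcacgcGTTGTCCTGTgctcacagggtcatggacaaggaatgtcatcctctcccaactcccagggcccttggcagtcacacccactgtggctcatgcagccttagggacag

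An intron of KCNJ1, the kidney channel ROMK, gained a peak at chr11:128865581-128865783, with treated ranks of 58.5, 54.0 and 37.3. No untreated library had a peak there. Within 100 bases of its summit the region holds an AP-1 site, the letters bound by FOS and JUN proteins, in capitals below.
KCNJ1 chr11:128865634-128865833: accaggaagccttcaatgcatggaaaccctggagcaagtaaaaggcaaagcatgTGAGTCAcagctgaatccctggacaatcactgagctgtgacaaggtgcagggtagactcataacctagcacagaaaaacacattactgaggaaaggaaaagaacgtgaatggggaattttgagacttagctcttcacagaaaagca
The site (TGAGTCA, or TGACTCA on the other strand) was found in 3 of the 15 KCN regions that rose (20%), in 29.0% of all regions that rose and in 15.1% of all regions tested. An exon of KCNJ1 fell from 65.6, 61.9 and 54.3 to 23.4, 0 and 0. An intron of KCNN3, the small-conductance channel SK3, kept its peak and fell by 28.2 points (SE 4.59, adjusted p = 0.01002). KCNMA1 had 3 regions gained or lost, all gained, and KCNH2 and KCNIP1 had 2 each. Genes with more regions have more chances, and KCNMA1 spans 769 kb. Among the named introns and exons, the calls were lost in 4 to 6 of the 6 fits without 1 library.

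**Figure D2:**
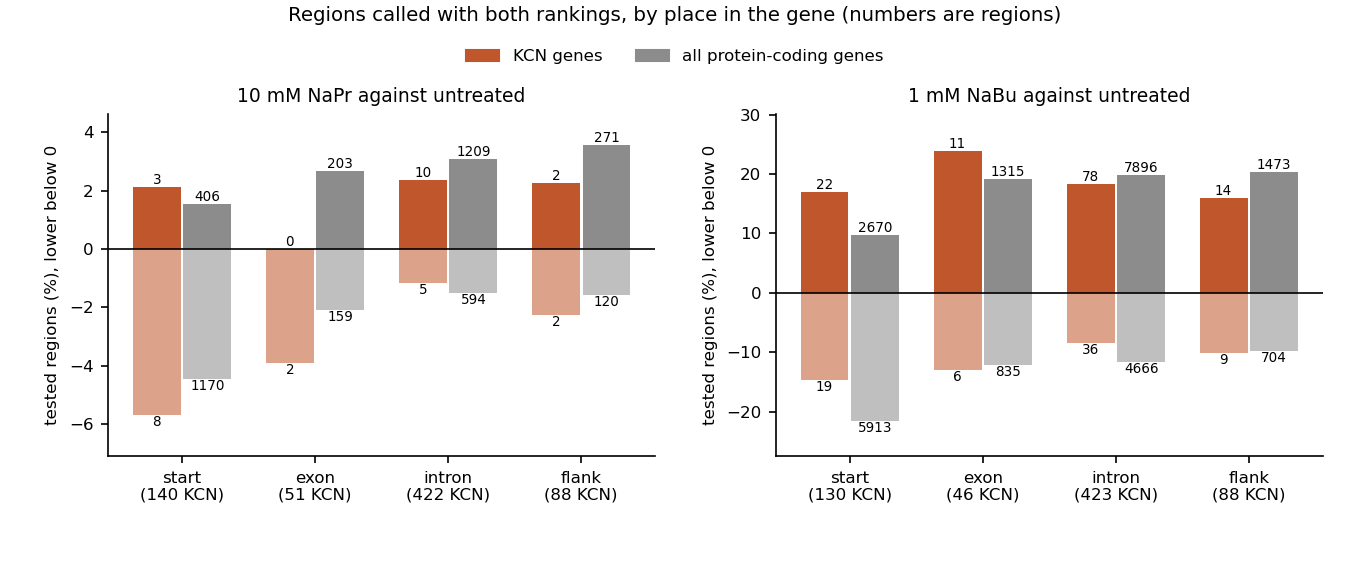
Share of tested regions (%) called higher (above 0) or lower (below 0) with both rankings after NaPr (left) and NaBu (right), for KCN genes and for all protein-coding genes, by place in the gene, with counts of regions on the bars. Starts fell more often than they rose after NaPr in both sets, and after NaBu 22 KCN starts rose and 19 fell where over all genes 2670 rose and 5913 fell.

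After NaBu more potassium channel regions were higher than lower, as over the genome. Of 856 merged regions 687 were tested, in 88 of the 96 genes, and 171 were higher (24.9%) and 70 lower (10.2%) in the planned test, beside 23.6% and 13.3% of all 127305 regions (37.0% in either direction). The ranking among all tested regions gave 135 higher and 104 lower (19.6% and 17.3% of all regions), fold enrichment 102 and 76, and pileups scaled by their background 109 and 88. Called with both rankings were 125 higher (18.2%) and 70 lower (10.2%), beside 18.1% and 13.3% of all regions. The groups did not overlap at 331 KCN regions, beside 48.6% of all. Without any 1 library the planned count stayed between 175 and 225. Among accessory subunits 28 of 134 regions were higher and 7 lower, against 44 and 34 of 276 for voltage-gated, 25 and 12 of 118 for calcium- or sodium-activated, 16 and 7 of 69 for 2-pore and 12 and 10 of 90 for inward rectifier genes. The families were not tested against each other.

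At starts 22 of 130 KCN regions rose and 19 fell after NaBu (16.9% and 14.6%), beside 9.74% and 21.6% of all protein-coding starts. In the planned test alone 29 were higher and 19 lower, beside 13.3% and 21.6%. In introns 78 of 423 rose and 36 fell (18.4% and 8.51%), beside 19.8% and 11.7%. Of the exon regions 11 of 46 rose and 6 fell (19.2% and 12.2% over all genes), and of the flank regions 14 of 88 rose and 9 fell (20.3% and 9.72%).

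The starts that fell most had middling ranks. KCNC1, a fast delayed rectifier of spiking neurons, went at its canonical start (chr11:17734557-17735520) from 60.5, 57.2 and 60.3 to 25.8, 0 and 0, a fall of 50.7 points (SE 8.04, adjusted p = 0.00224). An alternative start of KCNN3 at chr1:154859770-154860908 went from 36.1, 51.6 and 53.1 to no peak. KCNF1, a silent subunit that joins Kv2 channels, fell at chr2:10911414-10912216 from 69.2, 72.9 and 73.8 to 28.1, 29.9 and 39.3, by 39.5 points (SE 4.80, adjusted p = 0.000850). In none of these regions did the groups overlap. For KCNC1 and KCNN3, named among the largest changes, that was a condition, and for KCNF1, named as a passing start, it was not. KCNMA1, the BK channel of muscle, neurons and colon, had 2 regions at its canonical start and lost both: ranks of 34.0, 22.2 and 35.8 at chr10:77636790-77637870 and of 35.5, 45.2 and 15.9 at chr10:77638171-77638711 went to 0 in all 3 treated libraries. The falls were 30.7 points (SE 5.56, adjusted p = 0.00386) and 32.2 points (SE 7.65, adjusted p = 0.0122). KCNK13 fell at 2 small pieces beside its start by 34.8 and 32.1 points, calls that were lost in 5 and 3 of the 6 fits without 1 library, with adjusted p up to 0.165, while its strongest start peak ranked at 92.8 ± 2.02 untreated and 93.3 ± 4.02 treated (n = 3).

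KCNH2 fell at its canonical start, chr7:150978414-150979630, from 92.1, 89.2 and 90.8 to 79.1, 79.2 and 80.3, by 11.2 points (SE 1.13, adjusted p = 0.000489). KCNJ5, the cardiac channel subunit GIRK4, fell by 14.9 points (SE 2.49), and KCNJ2 by 4.12 (SE 1.17), from 96.7, 96.3 and 94.6 to 94.4, 91.1 and 89.9. KCNA2, a neuronal Kv1 channel, fell by 13.2 points at its canonical start (SE 3.30) and rose at 2 alternative starts, by 5.67 and 14.5 points.

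The starts that rose included accessory, silent and M-current subunits. KCNQ3, a subunit of the neuronal M current, rose at its canonical start from 18.4, 20.3 and 15.0 to 57.7, 51.8 and 50.1, by 35.3 points (SE 5.64, adjusted p = 0.00232). KCNE1, the partner of KCNQ1 in the heart, rose from 49.0, 60.003 and 53.0 to 78.3, 75.9 and 72.2, by 21.5 points (SE 3.65, adjusted p = 0.00297). KCNA7 rose from 53.7, 67.9 and 65.2 to 82.2, 82.9 and 81.8, by 19.99 points (SE 3.55), and KCNS3, a silent Kv subunit, from 84.9, 84.6 and 85.9 to 93.5, 93.3 and 92.0, by 7.77 points (SE 0.865). Every treated value was above every untreated one in these 4. KCNK15 split: 1 region at its start fell from 48.6, 56.0 and 47.1 to 25.7, 0 and 12.6 and its neighbour at chr20:44746667-44747992 rose from 81.7, 79.0 and 81.0 to 92.6, 93.9 and 92.0, by 12.3 points (SE 1.10). KCNK7, a 2-pore subunit, likewise rose at its canonical start by 23.9 points and fell by 26.3 at an alternative start that lies by EHBP1L1. At KCNH4 the start was higher by 30.5 points in the planned test (adjusted p = 0.0262) and missed the threshold with the other ranking (adjusted p = 0.0936) and in 4 of the 6 fits without 1 library (23.5 points without the second treated one).

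An alternative start of KCNK10, the stretch-sensitive 2-pore channel TREK-2, had next to no listed peak in untreated cells, at ranks of 3.71, 0 and 0. It stood at 40.2, 47.6 and 51.2 after NaBu, a rise of 45.1 points (SE 5.77, adjusted p = 0.00101). KCNAB2, a cytosolic beta subunit of the Kv1 channels, rose in an intron at chr1:6015925-6016894 from 5.47, 8.99 and 0 to 52.6, 57.7 and 64.5, by 53.5 points (SE 6.16, adjusted p = 0.000720). Both windows hold an AP-1 site by the summit, printed in capitals.
KCNK10 chr14:88327543-88327742: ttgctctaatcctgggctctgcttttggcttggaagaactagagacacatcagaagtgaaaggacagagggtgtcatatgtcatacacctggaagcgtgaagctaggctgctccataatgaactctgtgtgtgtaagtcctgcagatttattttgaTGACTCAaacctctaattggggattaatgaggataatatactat
KCNAB2 chr1:6016335-6016534: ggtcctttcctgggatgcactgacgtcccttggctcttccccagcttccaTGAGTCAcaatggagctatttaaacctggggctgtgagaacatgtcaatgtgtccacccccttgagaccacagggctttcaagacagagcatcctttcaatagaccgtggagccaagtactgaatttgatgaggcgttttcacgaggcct
An AP-1 site was held by 21 of the 125 KCN regions that rose (16.8%), beside 21.9% of all regions that rose after NaBu, and by 7 of the 70 that fell (11.1% of all that fell). The share over the KCN regions tested was 15.6%, and over all regions tested 16.0%.

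Whole peaks were gained at 43 KCN regions and lost at 25 after NaBu (6.26% and 3.64%), beside 6.42% and 3.91% of all regions. Among the top 50000 intervals of each list the balance turned, to 18 gained and 24 lost. Introns held 32 of the gains and 13 of the losses (7.82% and 4.15% over all introns), starts 3 and 6 (2.55% and 5.24%) and flanks 4 and 4 (7.44% and 2.73%). KCNMA1 and KCNQ1 each had 6 regions gained or lost, and KCNJ6 had 4. The largest gain and the largest loss both fell in introns of KCNMA1. At chr10:77273637-77274342 no untreated library had a peak and the treated ones ranked at 76.5, 72.5 and 73.6, a rise of 74.2 points (SE 5.31, adjusted p = 0.000248). At chr10:77472328-77473241 ranks of 62.2, 56.4 and 62.7 gave way to no peak, a fall of 60.4 points (SE 5.56, adjusted p = 0.000398). Both regions passed the filter only through the group that had the peak. Their separation follows from how gained and lost peaks are defined, and their adjusted p-values add no separate support. Both windows are shown around their summits, whose 10 bases are in capitals. They are the largest gain and loss of the NaBu experiment alone. Neither holds the AP-1 or RE1 letters searched, which says only that those letters are not in these windows.
KCNMA1 chr10:77274135-77274334: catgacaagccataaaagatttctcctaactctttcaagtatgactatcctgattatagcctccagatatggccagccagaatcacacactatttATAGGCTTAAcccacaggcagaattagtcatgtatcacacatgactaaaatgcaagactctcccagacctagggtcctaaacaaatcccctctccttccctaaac
KCNMA1 chr10:77472681-77472880: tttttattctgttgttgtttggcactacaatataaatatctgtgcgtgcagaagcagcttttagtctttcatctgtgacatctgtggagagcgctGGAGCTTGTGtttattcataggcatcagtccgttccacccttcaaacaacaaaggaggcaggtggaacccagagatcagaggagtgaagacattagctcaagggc
Along its 56 tested regions KCNMA1 had 9 that rose and 8 that fell. Another intron of the gene, at chr10:77409503-77410510, fell from 75.4, 69.5 and 72.8 to 0, 38.7 and 21.5.

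Some other genes, picked after their values were seen, had calls mainly in 1 direction. Over all regions 18.1% were higher and 13.3% lower with both rankings (23.6% and 13.3% in the planned test). KCNS3 had 9 regions higher and 1 lower of 22, KCNAB1, a beta subunit, 7 and 1 of 29, KCNQ5, an M-current subunit, 5 and 0 of 11, and KCNN1, the channel SK1, 5 and 0 of 11. An intron of KCNQ5 rose from 13.5, 17.0 and 0 to 67.2, 61.5 and 62.1, by 53.4 points (SE 6.49), and an intron of KCNIP4 from no peak to 48.4, 48.0 and 55.76. KCNQ1 had more lower, with 5 higher and 10 lower of 43, and so did KCNH2, with 1 and 4 of 12. These counts are small, and no gene was tested against that background. In KCNH2 an intron region at chr7:150971732-150972432 fell from 57.0, 59.3 and 59.1 to 0.423, 0 and 0, by 58.3 points (SE 5.41, adjusted p = 0.000405). It is printed because it lies in the same gene as the NaPr gain and is a different stretch. The summit bases are in capitals.
KCNH2 chr7:150972084-150972283: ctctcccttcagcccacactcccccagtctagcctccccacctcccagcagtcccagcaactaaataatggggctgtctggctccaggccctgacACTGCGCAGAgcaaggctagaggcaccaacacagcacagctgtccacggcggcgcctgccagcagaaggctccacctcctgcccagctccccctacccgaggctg
In KCNIP3, which encodes DREAM, a calcium sensor that also binds Kv4, an exon region rose from 0.0733, 20.2 and 0 to 46.2, 51.7 and 55.04 and an intron region fell from 56.6, 70.0 and 68.1 to 1.80, 24.4 and 3.19. A flank of KCNH6 that lies by a start of DCAF7 fell by 60.1 points.

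**Figure D3:**
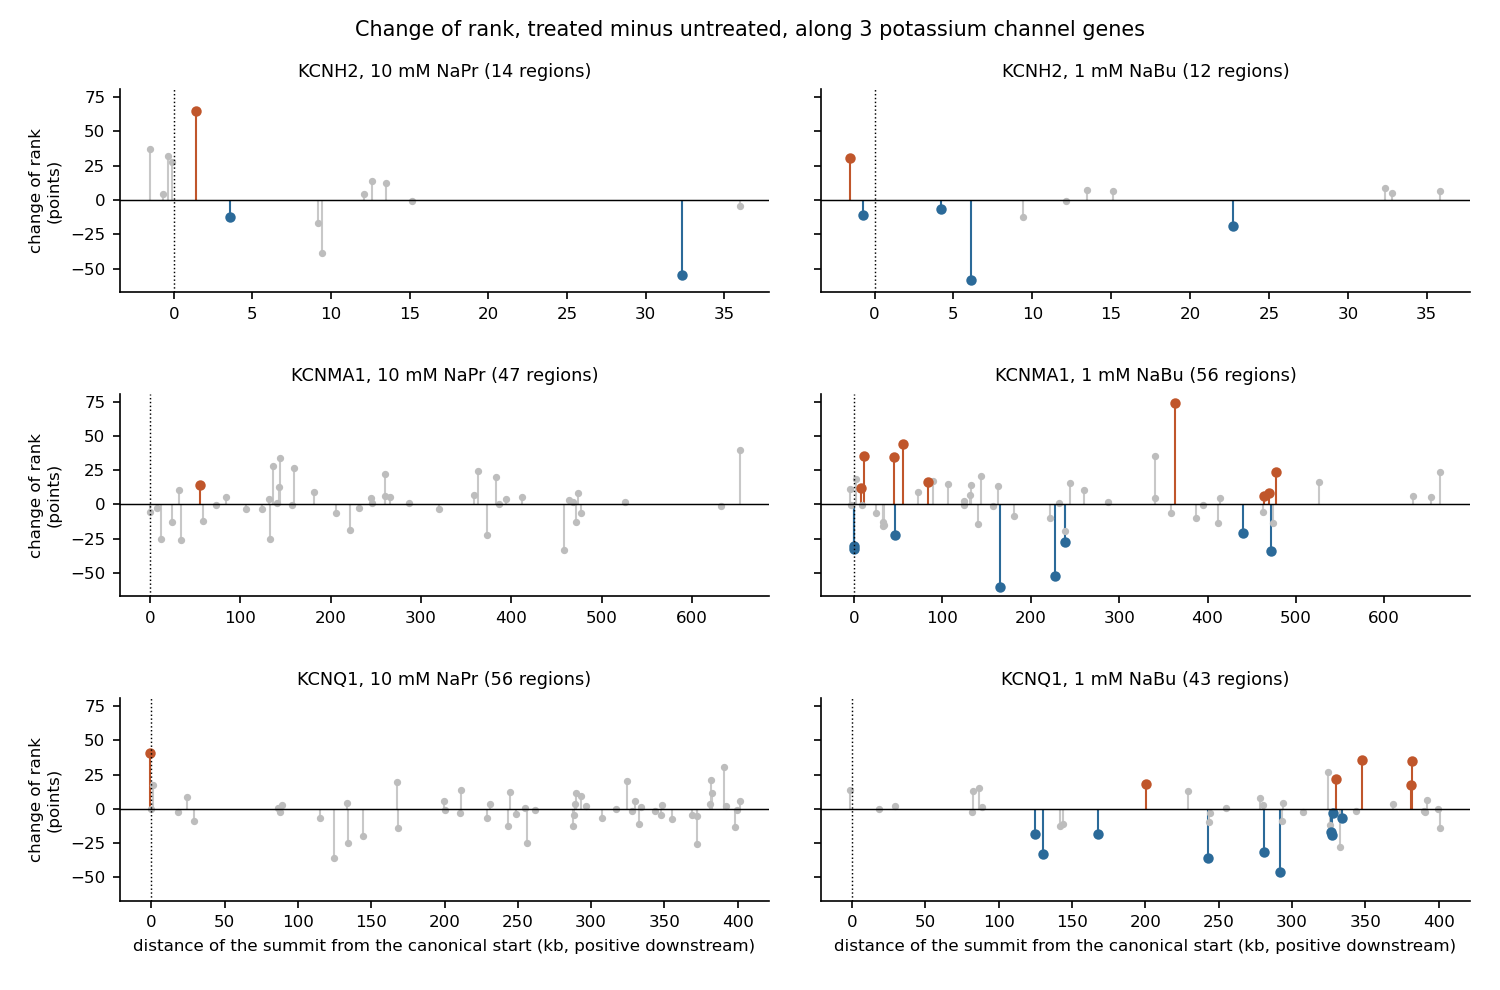
Change of rank (points, treated minus untreated) against distance of the region's summit from the canonical start (kb) in KCNH2, KCNMA1 and KCNQ1 after NaPr (left) and NaBu (right). Orange regions rose and blue regions fell with both rankings, grey regions did not pass, and KCNMA1 holds 17 coloured regions after NaBu.

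The starts of members known for K+ conductance in colon epithelium or in cancer lines were chosen for that role and not for their change. After NaPr none of the canonical starts of KCNQ1, KCNE3, KCNN4, KCNK5, KCNK1, KCNMA1 and KCNH2 passed, with adjusted p from 0.0867 to 0.903. KCNE3 went from 82.4, 82.7 and 78.2 to 74.5, 75.2 and 70.7 (−7.64 points, SE 2.40, adjusted p = 0.0867), and KCNK1 from 88.0, 84.6 and 84.0 to 82.7, 77.6 and 76.6 (−6.56, SE 2.07, adjusted p = 0.0880), both past the threshold with the other ranking (adjusted p = 0.0377 and 0.0313). KCNMA1 differed by −5.41 (SE 8.42, adjusted p = 0.724), KCNQ1 by −0.401 (SE 1.58), KCNN4 by −1.33 (SE 1.88) and KCNK5 by −3.48 (SE 1.83). The 3 regions at the KCNH2 start differed by 4.27 to 32.3 points (adjusted p = 0.178 to 0.280). After NaBu, KCNH2 and KCNMA1 fell as given above. KCNN4, the intermediate-conductance channel, went from 72.6, 69.8 and 76.7 to 76.1, 80.8 and 81.9 (6.56 points, SE 2.40, adjusted p = 0.0623, and 0.0410 without the third untreated or 0.0423 without the first treated library), and KCNQ1 was 14.1 points higher (SE 5.82, adjusted p = 0.0912). KCNE3 went from 0, 22.4 and 31.3 to 0, 23.7 and 0 (−10.0 points, SE 9.58, adjusted p = 0.426). KCNK5 and KCNK1 differed by −0.251 (SE 1.54) and −1.98 (SE 4.27). KCNJ15 and KCNJ16 had no start peak to compare in either experiment.

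Whether a region answered the 2 treatments differently was tested as the NaPr difference minus the NaBu difference, over regions joined across the 12 libraries and ranked anew. Of 873 KCN regions 34 were higher and 50 lower, beside 4.92% and 6.73% of all 167303 regions, and 27 and 21 with both rankings, beside 3.45% and 3.64%. KCNH2 held 4 of the regions called both ways. The intron it gained after NaPr ranked at 68.7, 67.4 and 55.83 in NaPr-treated libraries, at 2.05 in 1 NaBu-treated library and at 0 in the 8 others, a difference of 63.3 points (SE 6.11, adjusted p = 0.000204). Its canonical start went from 78.5, 77.3 and 73.4 to 80.1, 80.1 and 81.7 with NaPr and from 91.9, 89.0 and 90.6 to 78.7, 78.7 and 79.9 with NaBu, a difference of 15.6 points (SE 2.07, adjusted p = 0.000865). An intron of KCNMA1 near the start, at chr10:77626223-77626784, had 65.3, 59.0 and 54.5 untreated and 30.7, 41.2 and 30.4 with NaPr, against 1.34, 0 and 0 untreated and 37.4, 23.1 and 44.2 with NaBu (difference −59.98, SE 8.64, adjusted p = 0.00137). In the separate tests it rose with NaBu by 35.1 points (adjusted p = 0.00449), and the NaPr change of −25.4 did not pass (adjusted p = 0.0985). The KCNMA1 intron lost after NaBu had no peak in any library of the NaPr experiment and could not fall there, and the intron gained after NaBu was open in the untreated cells of that experiment at 61.8, 53.1 and 15.3. At the KCNJ9 start the difference was −40.2 (SE 5.62, adjusted p = 0.00117), and at the KCNF1 start 26.0 (SE 4.97, adjusted p = 0.00656).

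**Figure D4:**
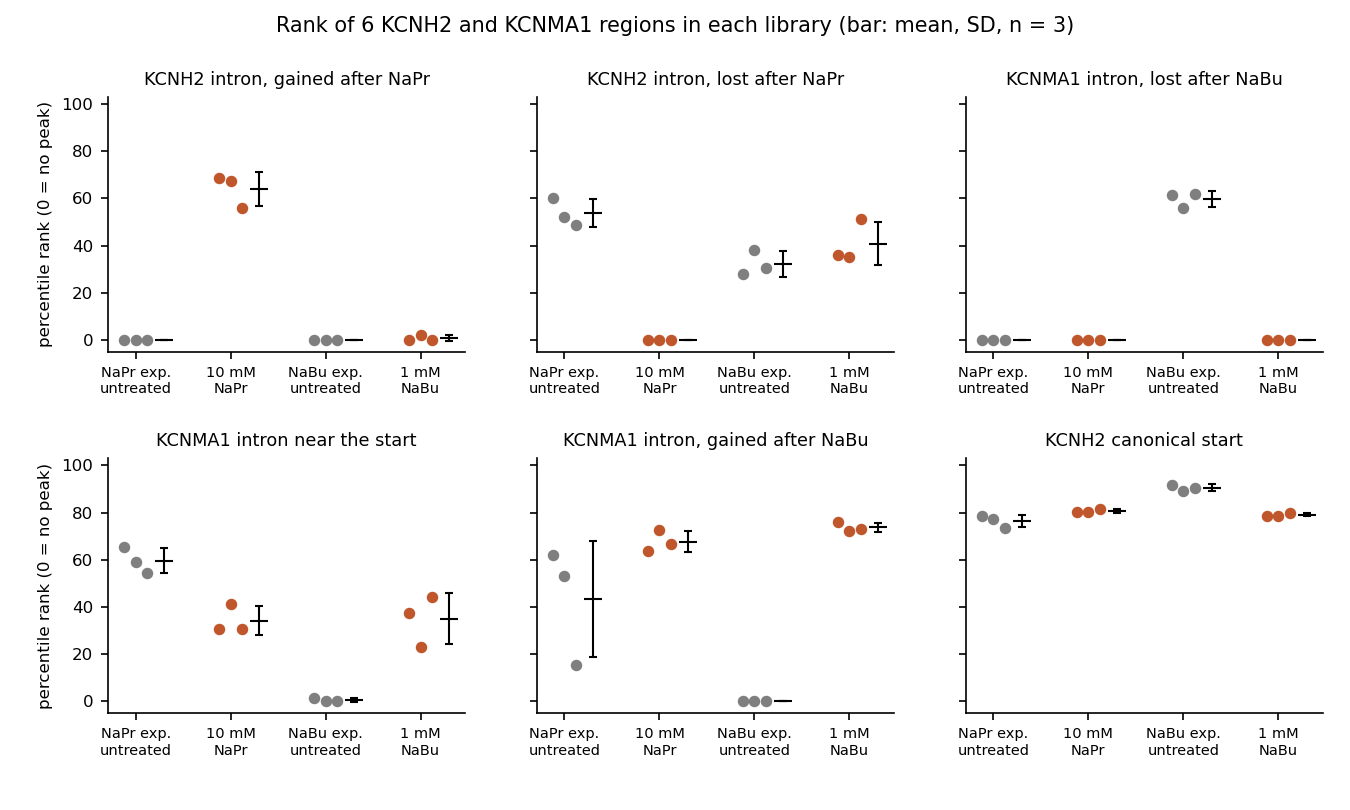
Percentile rank (0 where no peak was listed) of 6 KCNH2 and KCNMA1 regions in each of the 12 libraries, with the mean and SD of each group of 3, ranked over the regions of both experiments together. The KCNH2 intron at upper left has ranks from 55.83 to 68.7 with NaPr and at most 2.05 elsewhere.

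The experiments have separate controls, so their calls can be laid side by side. Of 529 overlapping pairs of KCN regions, 29 were called after NaPr and 153 after NaBu with both rankings. Both compounds raised 5 (17.2% of the NaPr calls and 3.27% of the NaBu calls), lowered 7 (24.1% and 4.58%) and moved 0 in opposite directions. Raised by both were the KCNA7 start, an intron each of KCNK3, KCNAB1 and KCNMA1 and a flank of KCNIP3. Among those lowered by both were starts of KCNJ14 and KCNK15, exons of KCNH2 and KCNJ1 and introns of KCNC1 and KCNJ5. Over all 92492 pairs, 6209 called after NaPr and 30309 after NaBu, 2337 were raised by both (37.6% and 7.71%), 1428 lowered by both (23% and 4.71%) and 92 moved in opposite directions.

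Genes that work beside these channels were counted in the same way. Among 22 epithelial ion transport partners, 12 starts were open in all libraries (54.5%), among 23 sodium, calcium and pacemaker channels of excitable cells 10 (43.5%), beside 66.5% of all protein-coding genes. After NaPr 5 of 156 transport regions rose and 5 fell, and 7 of 330 excitable channel regions rose and 2 fell, beside 2.88% and 2.11% of all regions. After NaBu the counts were 24 and 23 of 154, and 47 and 42 of 277, beside 18.1% and 13.3% of all regions. At starts after NaBu these lists had 4 higher and 14 lower of 46 for transport genes and 6 and 11 of 43 for excitable channels, where KCN starts had 22 and 19 of 130 and all protein-coding starts 9.74% and 21.6%. The largest falls at starts were in SCNN1A, SLC12A7 and CACNA1D. SCNN1A, a subunit of the epithelial sodium channel, fell at an alternative start (−55.7 points, SE 5.24). At its canonical start, chr12:6375380-6375588 fell (−55.1 points) while chr12:6376076-6376586 differed by −1.45 (limma adjusted p = 0.402). SLC12A7, a K+-Cl− cotransporter, fell at a piece of its canonical start (−53.0, SE 5.86), where another region was at −9.18. Several of the 14 lower transport starts were pieces of SCNN1A and SLC12A7. CACNA1D, a calcium channel, also fell (−58.7, SE 8.19), and an alternative start of SCN4A, the muscle sodium channel, rose by 32.3 (SE 2.13). The difference between lists was not tested.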

How the data were processed

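ATAC-seq peak lists of 12 SW480 libraries were analysed, 3 per group, and the 8 CT26 lists were not used. Per the submitters' processing notes the authors used bcl2fastq 2.17.1, cutadapt 1.9.1, Bowtie2 2.3.1 and MACS2 2.1.0 on hg38. The deposited lists hold the fold enrichment at the summit (a ratio to background), its −log10 p and −log10 q, as MACS2 writes them, called per library. Read depth is not in them.

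Genes came from GENCODE v44. Intervals overlapping by 1 bp were merged within an experiment, each region took the percentile rank of its highest −log10 p among the regions with a peak in that library (0 without one), and regions found in 2 libraries or more were fitted with limma 3.58.1 (trend, two-sided), with the Benjamini-Hochberg threshold at 0.05 over all regions. Start regions lay within 1 kb of an annotated start, and flanks within 5 kb of the gene. Motifs were read in 200 bp around the summit, AP-1 by exact letters and RE1 with at most 1 mismatch. The scripts were tested on simulated data and used Python 3.11.15 and R 4.3.3.

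Named regions were the 8 largest changes in each direction per compound with groups that did not overlap, up to 12 passing starts per compound, up to 6 interaction regions, the starts of 9 colon or cancer-line members, and the genes with the most gained or lost peaks. Other regions named were chosen after their values were seen. Some genes are counted among the members but not reported here by name. The members and lists were chosen with earlier results of these data known. Alternatives were fold ranking, the top 50000 intervals, −log10 q of at least 2, a 100 bp overlap, other filters and flanks, recovered pileups, the replicate block and leaving out each library.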

Additional observations from a re-analysis of the deposited data

Results flagged for a closer look

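The effects of NaPr and NaBu differed by the interaction test (limma, adjusted over 167303 regions) at 6 regions named for the size of that difference. The difference is the NaPr change minus the NaBu change, in points of rank, and compound, dose and experiment cannot be told apart in it. Each call was kept in all 12 fits without 1 library.

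At the KCNH2 intron chr7:150976449-150977057 the difference was 63.3 (adjusted p = 0.000204), with a peak in all 3 NaPr-treated libraries and, at a rank of 2.05, in 1 of the 3 NaBu-treated ones. At the KCNH2 intron chr7:150945694-150946453 it was −62.4 (adjusted p = 0.000797): 60.3, 52.3 and 48.6 went to 0 with NaPr, while 28.0, 38.2 and 30.3 went to 36.2, 35.0 and 51.3 with NaBu, groups that overlap. At an intron of KCNQ3 it was −61.9 (adjusted p = 0.00479), which missed the threshold when ranks were taken among all tested regions (adjusted p = 0.0706).

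At the KCNMA1 intron chr10:77626223-77626784 the difference was −60.0 (adjusted p = 0.00137). At chr10:77409503-77410510 it was 61.6 (adjusted p = 0.0130, and 0.116 with the other ranking), and at chr10:77472328-77473241 it was 59.8 (adjusted p = 0.000148). The untreated libraries of the NaPr experiment had no peak at the last 2 regions, so no fall could be seen there.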

How the results depend on the processing

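After NaPr 37 KCN regions were called. The count was 0 by fold enrichment (limma, 111 regions at an unadjusted p under 0.05), 7 with no filter, 98 with pileups scaled by their median, 62 with 50 kb on both sides, and 0 to 15 without 1 library. After NaBu 241 were called, 109 among the top 50000 intervals and 466 with 50 kb on both sides. Regions gained or lost numbered 29 after NaPr, against 15 among the top 50000 intervals, 56 with 50 kb on both sides and 43 to 57 without 1 library. After NaBu they numbered 68, against 42 and 127, and 83 to 101 without 1 library. With 1 library left out the rule asks for fewer libraries, so the counts of gained or lost regions can only rise. The difference in genes with a start peak after NaBu was −0.667 and ran from −2.00 to 0.5 without 1 library, with 0.333 without the first treated library. The cause of the other shifts was not tested beyond the wider flanks and shorter lists, which hold more and fewer regions.

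Signs turned at starts that did not pass. The KCNH2 start after NaPr was at −6.32 by fold enrichment. With pileups scaled by the background KCNMA1 was at 0.0866 and KCNQ1 at 0.0920 (log2), and KCNQ1 was at 0.301 with a −log10 q of at least 2. Without 1 library KCNQ1 ran from −1.43 to 0.268 (0.258 without untreated replicate 3) and KCNK5 after NaBu from −1.06 to 0.727 (0.221 and 0.0611 without treated replicates 2 and 3).

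With the replicate block 40 KCN regions were called after NaPr and 244 after NaBu. Whether the numbers pair the libraries was not settled. Deviations of same-numbered libraries correlated at 0.00390 to 0.0332, all of them positive and small. Each untreated library correlated best with the treated one of its number. The reverse failed for NaPr treated 1 (0.00390, against 0.00433 with untreated 2) and NaBu treated 2 (0.00768, against 0.0138 with untreated 3). Of the values for single regions under all alternatives, 766 kept their direction and their side of the threshold (regions that never passed included), 207 lost a call, 11 gained one and 9 turned sign. The 3 libraries per group, unknown read depth and a weakest listed peak that differs between libraries limit all of these values, and a region at 0 may hold a peak too weak to be listed. Ranks among all tested regions and the canonical start alone were alternatives chosen after seeing the data.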
